A study of Caenorhabditis elegans with 2 samples.

Results

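ELT-3 is a GATA factor of the worm epidermis, and the regions described here are the ELT-3 ChIP-seq regions that lie at tRNA, snoRNA and snRNA genes. Of the 30000 regions that were called on both replicates pooled, 395 had their summit, the position of highest signal, within 200 bases of an annotated gene of these 3 biotypes. They comprised 240 regions at tRNA genes, 118 at snoRNA genes and 39 at snRNA genes, and 2 of the 395 lay near genes of more than 1 biotype. Members were chosen by position alone, without regard to signal. The data came from whole L3 larvae of strain OP75, of mixed sex and pooled, which carry the mutation unc-119(ed3) III and the transgene wgIs75, which makes ELT-3 with a GFP-FLAG tag at its C terminus. There were 2 biological replicates of this single group and no second condition. The profile therefore belongs to a tagged transgenic protein in a mixture of all larval tissues, and a position used in few cells cannot be told apart from one used weakly in many. A possible control experiment named in the labels was not analysed here, so the level of these genes in a profile without ELT-3 is not known from these files.

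Cells transcribe tRNA genes with RNA polymerase III, which is recruited through promoter elements inside the gene, the A and B boxes. The snoRNAs guide chemical modification of ribosomal RNA and other RNAs, and many are made from introns of other genes. The snRNAs form the core of the spliceosome. The annotation also counts among them most nematode SmY RNAs and the spliced leader RNAs, which nematodes join to the 5′ ends of messenger RNAs. The spliced leader SL1 comes from the sls-1 genes and SL2 from the sls-2 genes. GATA factors recognise short sequences around the letters GATA. A GATA sequence here means AGATAA or AGATAG or TGATAA or TGATAG on either strand within 100 bases of the summit.

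The sequences below show what lay under strong summits of each biotype, as given by RefSeq for WBcel235 (ce11), each read in the direction of its gene, with GATA sequences in capitals in the first and the second. The first is the stretch before and into the glutamate tRNA gene F01G12.t1 at X:16378061-16378131 (plus strand), where a GATA sequence stands directly upstream of the gene. The second surrounds the summit at the glycine tRNA gene ZK154.t3 at X:7794454-7794604 (plus strand), with a pair of GATA sequences end to end. The third is the end of the leucine tRNA gene W02H3.t1 and the bases after it at X:11095731-11095813 (plus strand), with the B box letters GTTCGANNC in capitals and no GATA sequence. The fourth surrounds the summit at the snoRNA gene ZK994.7 at V:8500506-8500656 (plus strand), with no GATA sequence. The fifth is sls-2.8, a gene of the sls-2 family, at III:12250465-12250575 (plus strand). Its letters AATTTTTGG, the kind of site that Sm proteins bind in these RNAs, are in capitals.
F01G12.t1: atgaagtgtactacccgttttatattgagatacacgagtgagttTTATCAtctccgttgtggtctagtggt
ZK154.t3: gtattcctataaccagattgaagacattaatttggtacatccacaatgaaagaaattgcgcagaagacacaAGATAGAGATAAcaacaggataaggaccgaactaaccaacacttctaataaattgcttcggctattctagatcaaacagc
W02H3.t1: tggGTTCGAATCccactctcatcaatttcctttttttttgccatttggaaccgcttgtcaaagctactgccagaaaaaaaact
ZK994.7: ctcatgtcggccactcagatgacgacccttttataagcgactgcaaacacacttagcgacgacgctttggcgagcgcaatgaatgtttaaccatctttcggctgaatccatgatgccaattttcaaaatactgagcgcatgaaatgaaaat
sls-2.8: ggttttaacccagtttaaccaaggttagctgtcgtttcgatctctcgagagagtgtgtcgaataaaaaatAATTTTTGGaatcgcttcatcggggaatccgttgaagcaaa

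The first comparison asked how many genes of each biotype had a region. Of 612 tRNA genes on the nuclear chromosomes, 257 had a pooled summit within 200 bases (42.0%, exact 95% interval 38.0 to 46). The share was 119 of 346 for snoRNA genes (34.4%, 29.4 to 39.7) and 37 of 129 for snRNA genes (28.7%, 21.1 to 37.3). The interval of the tRNA genes lay just above that of the snRNA genes, with bounds of 38.0 and 37.3, and the interval of the snoRNA genes overlapped both. The 129 snRNA genes include 12 sls-1 genes of a single locus where no region was called. The share without that locus was not computed, so the separation of tRNA and snRNA genes may depend on it. Among genes whose sequence no other gene of the biotype shared, a restriction chosen after seeing the data, a region was present at 39 of 143 tRNA genes (27.3%, 20.2 to 35.3), 119 of 346 snoRNA genes (34.4%, 29.4 to 39.7) and 27 of 85 snRNA genes (31.8%, 22.1 to 42.8). The tRNA genes were then the lowest of the 3 and the intervals overlapped. All intervals are by the Clopper-Pearson method and reflect counting error alone, since genes and regions are not replicates, and no test between conditions exists in this design. For a like comparison with other genes, the window was set to 200 bases to either side of the annotated start. In that window 39.7% of tRNA genes (35.8 to 43.7), 29.2% of snoRNA genes (24.5 to 34.3) and 22.5% of snRNA genes (15.6 to 30.7) had a pooled summit, against 15.4% of 19973 protein-coding gene starts (14.9 to 15.9) and 11.8% of 250054 genome tiles of the same 401 bases. The interval of each biotype lay above the value for tiles, and the lower bound of the snRNA genes was close to the value for protein-coding starts.

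**Figure D1:**
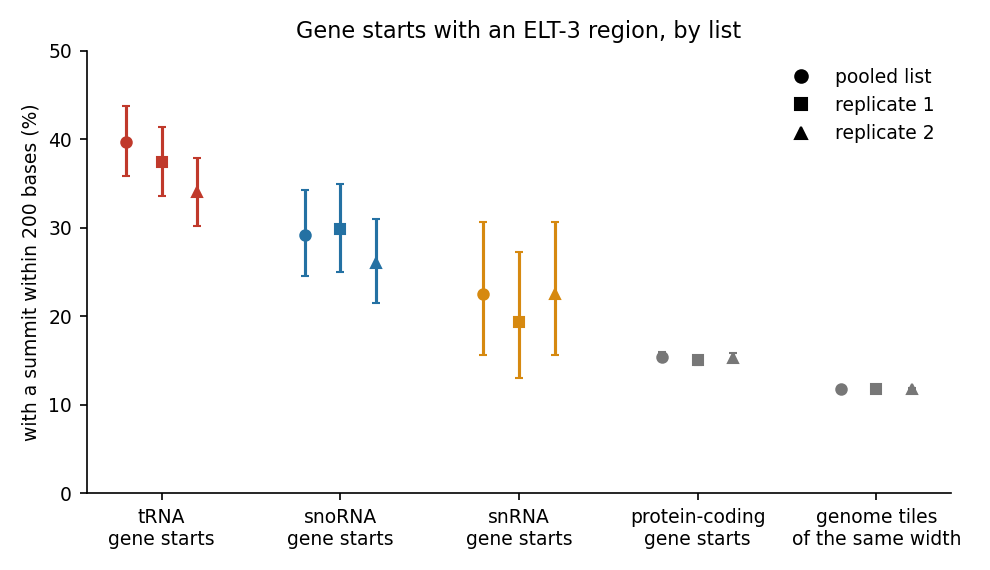
Share of gene starts with a summit within 200 bases (y axis, percent) for tRNA, snoRNA, snRNA and protein-coding genes and for genome tiles of the same width, in the pooled list (circles), replicate 1 (squares) and replicate 2 (triangles), with exact 95% intervals. The tRNA genes stood highest in each list, from 34.0% to 39.7%, and protein-coding starts stayed between 15.0% and 15.4%.

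The order of the biotypes by share was the same in both replicates, with overlapping intervals in replicate 2. The list of replicate 1 had a summit within 200 bases of 40.4% of tRNA genes, 33.2% of snoRNA genes and 22.5% of snRNA genes, and the tRNA interval (36.4 to 44.4) lay above the snRNA interval (15.6 to 30.7). The list of replicate 2 had one at 36.9% of tRNA genes, 32.1% of snoRNA genes and 28.7% of snRNA genes, and the tRNA interval (33.1 to 40.9) overlapped the snRNA interval (21.1 to 37.3). Both replicate lists had a summit at 146 of 612 tRNA genes (23.9%), 71 of 346 snoRNA genes (20.5%) and 18 of 129 snRNA genes (14.0%). Presence in both lists was not counted for protein-coding starts or genome tiles, so whether these shares exceed the general level was not tested. Between the single lists, the tRNA share was thus lower in replicate 2 and the snRNA share lower in replicate 1.

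Summits were more frequent close to tRNA and snoRNA genes than further away, and this was less clear at snRNA genes. The choice of members itself keeps the summits counted next within 200 bases of a gene. At tRNA genes 103 of 240 summits lay upstream of the gene, 66 inside it and 71 downstream. At snoRNA genes 53 of 118 lay upstream, 35 inside and 30 downstream, and at snRNA genes 14 of 39 lay upstream, 10 inside and 15 downstream. Per 100 tRNA genes, the 50 bases just before the start held 7.35 summits and bases 50 to 99 after it held 7.19. The corresponding bins of protein-coding genes held 2.15 and 1.88 per 100 genes. For snoRNA genes the fullest bin was 51 to 100 bases before the start, with 7.23 summits per 100 genes, and the same bin was the fullest for snRNA genes with 6.20, a value that rests on 8 summits. At tRNA genes the outermost 4 upstream bins, which end 500 bases before the start, held between 0.654 and 1.80 summits per 100 genes.

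**Figure D2:**
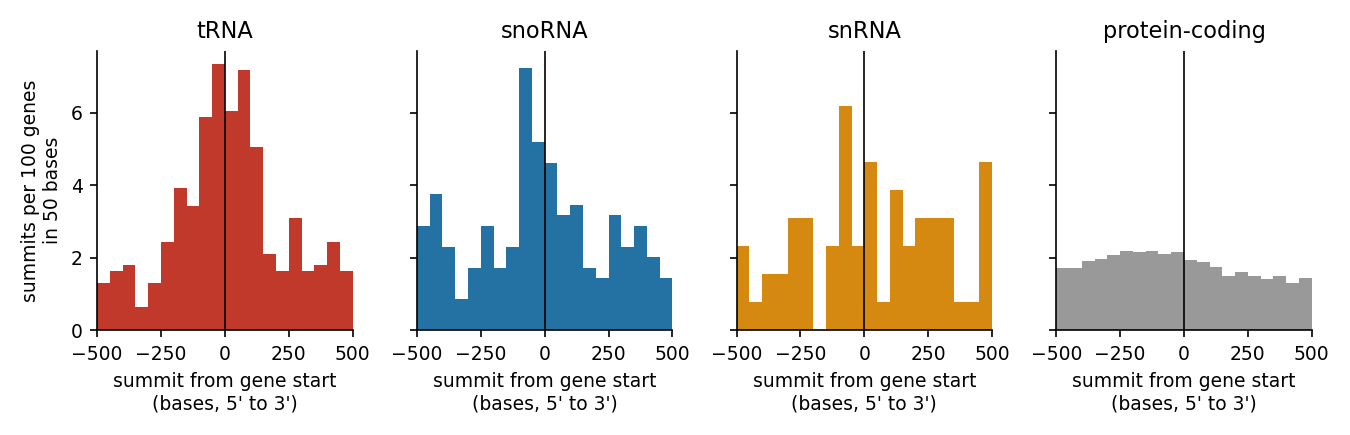
Summits of the pooled list per 100 genes in bins of 50 bases (y axis) by distance of the summit from the annotated gene start in the direction of transcription (x axis, bases), for tRNA, snoRNA, snRNA and protein-coding genes. The tRNA profile peaked around the start at up to 7.35 per 100 genes, and the protein-coding profile did not exceed 2.19.

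Regions at these genes had stronger median ranks than all pooled regions and than regions at protein-coding gene starts. The signal is the value the authors' peak caller gave each region, on a scale that the sources used here do not give, so ranks within a list were used, as a percent of the list with the strongest region near 0. The median rank was 20.4% for regions at tRNA genes, 20.2% at snoRNA genes and 35.6% at snRNA genes, against 50% over all pooled regions. In the window of 200 bases to either side of the start it was 20.6% for 227 tRNA regions, 14.6% for 98 snoRNA regions and 22.8% for 30 snRNA regions, against 43.9% for 3042 regions at protein-coding gene starts. The snRNA median thus depended on the window, and it was 22.5% with summits within 100 bases of the gene. Other noncoding genes had medians of 26.5% for 10 regions at antisense RNA genes, 26.7% for 35 at miRNA genes, 28.0% for 28 at lincRNA genes and 38.2% for 1411 at ncRNA genes in the start window, so high ranks were not limited to the 3 biotypes. The median signal was 16.5 at tRNA genes, 16.5 at snoRNA genes and 14.3 at snRNA genes, against 13.6 at protein-coding starts and 13.1 over all regions. Among the strongest 3000 regions were 27.5% of the tRNA regions (22.0 to 33.6), 39.0% of the snoRNA regions (30.1 to 48.4) and 28.2% of the snRNA regions (15.0 to 44.9), against 10% of all regions. Members also reached far down the list, since 27.9% of the tRNA regions, 24.6% of the snoRNA regions and 35.9% of the snRNA regions were among its weaker 15000 regions. In replicate 1 the median ranks were 20.5%, 20.0% and 34.2% for tRNA, snoRNA and snRNA genes, and in replicate 2 they were 31.5%, 21.6% and 34.8%, so the tRNA regions ranked lower in replicate 2.

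**Figure D3:**
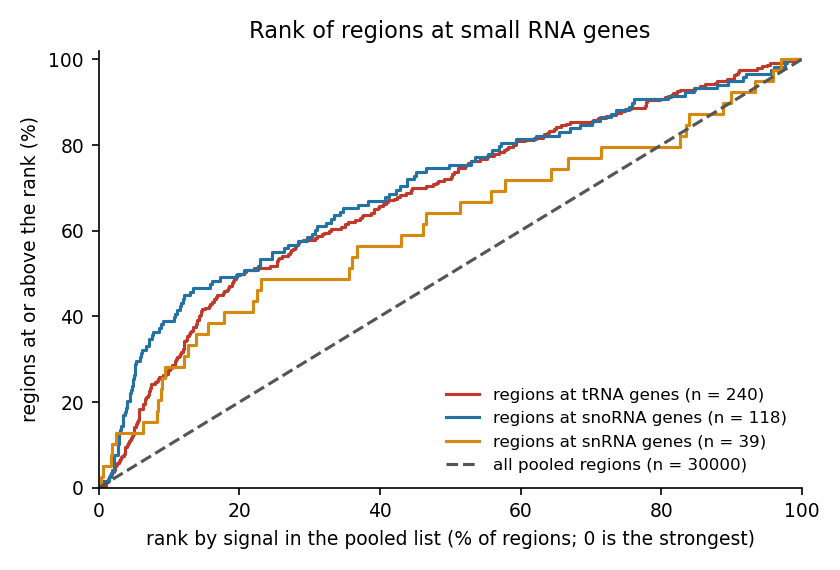
Cumulative share of regions (y axis, percent) at or above each rank by signal in the pooled list (x axis, percent of 30000 regions, strongest at 0) for regions at tRNA, snoRNA and snRNA genes, with all pooled regions as the dashed diagonal. The tRNA and snoRNA curves cross 50% near ranks of 20.4% and 20.2%, and the snRNA curve near 35.6%.

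Presence in both replicate lists was the replicate check the lists allow. A summit of both replicate lists lay inside 50.8% of the tRNA regions (44.3 to 57.3), 55.1% of the snoRNA regions (45.7 to 64.3) and 46.2% of the snRNA regions (30.1 to 62.8), against 33.7% of all pooled regions. Strong regions are found in both lists more often wherever they lie. Within the 6000 strongest pooled regions the shares were 79.0% at tRNA genes (70.6 to 85.9), 86.4% at snoRNA genes (75 to 94.0) and 75% at snRNA genes (47.6 to 92.7), against 78.8% over all, so at like rank each interval included the value for all regions. Of the tRNA regions, 72 had a summit of replicate 1 only, 37 of replicate 2 only and 9 of neither. This split was not counted over all pooled regions, so it cannot be called particular to the tRNA regions. Over the regions found in both lists, Spearman's rho between the replicate signals was 0.333 at tRNA genes (n = 122), 0.268 at snoRNA genes (n = 65) and 0.549 at snRNA genes (n = 18), against 0.332 over all 10121 such regions, given as a description across regions of the same 2 libraries.

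**Figure D4:**
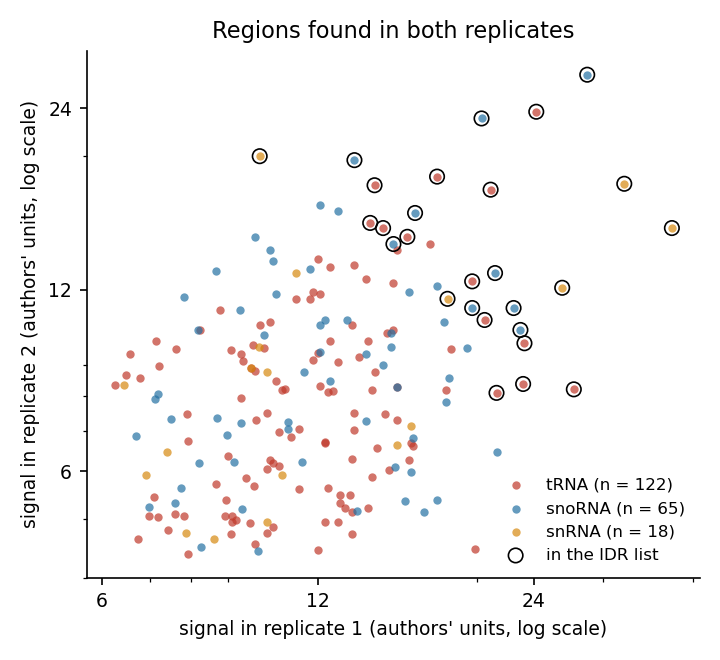
Signal in replicate 2 (y axis) against signal in replicate 1 (x axis), both in the authors' units on log scales, for member regions with a summit of both replicate lists, coloured by biotype, with members of the IDR list ringed. The ringed regions lie towards the upper right, with signals from 9.96 to 37.4 in replicate 1 and from 8.10 to 27.3 in replicate 2.

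The IDR list holds the 774 regions that passed the authors' threshold on the irreproducible discovery rate, 2.58% of the pooled regions. They are also the 774 pooled regions of highest signal, so membership follows from rank. The list held 13 of 240 tRNA regions (5.42%, 2.92 to 9.08), 9 of 118 snoRNA regions (7.63%, 3.55 to 14.0) and 5 of 39 snRNA regions (12.8%, 4.30 to 27.4). Together these were 27 of 395 (6.84%, 4.55 to 9.79). The interval of each biotype lay above 2.58%, and the 3 intervals overlapped each other. The 27 regions were 3.49% of the IDR list.

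Of the 13 tRNA regions in the IDR list, 8 were on X (61.5%, 31.6 to 86.1), against 276 of all 612 tRNA genes (45.1%), a share inside that interval. The strongest was at F01G12.t1, a glutamate tRNA gene inside sur-7 on the same strand. Its region at X:16377902-16378241 had a pooled signal of 46.8 (rank 160), with 24.2 in replicate 1 and 23.7 in replicate 2, and its summit lay 41 bases upstream of the gene with 2 GATA sequences in the window. C37A2.t1, a cysteine tRNA gene inside cye-1, the cyclin E gene, had a signal of 39.1, with 17.6 in replicate 1 and 18.5 in replicate 2. At W02H3.t1, the leucine tRNA gene shown above, the summit lay inside the gene, with a signal of 38.7 (20.9 in replicate 1 and 17.6 in replicate 2) and no GATA sequence. Over all regions of the lists the median signal was 8.18 in replicate 1 and 5.91 in replicate 2. F52H2.t1, an aspartate tRNA gene inside the amino acid transporter gene aat-3, had a signal of 37.0, with 27.3 in replicate 1 and 8.21 in replicate 2. One region with a signal of 36.7 lay at the serine tRNA genes C53C7.t1 and C53C7.t2 together, and one with a signal of 35.5 and 3 GATA sequences lay at the glycine tRNA genes ZK154.t3 and ZK154.t4. C48C5.t2, for serine, had a signal of 34.1 and no GATA sequence. The other 6 had signals from 29.9 to 32.6 and lay at F49D11.t2 (glycine), W03G11.t1, B0350.t1 and W09G10.t2 (lysine), Y38E10A.t1 (alanine) and F38G1.t2 (aspartate, inside the FGF gene egl-17).

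Of the 9 snoRNA regions in the IDR list, 1 held a GATA sequence. The strongest was at ZK994.7, inside an intron of the peroxidasin gene pxn-1. Its region at V:8500411-8500750 had a signal of 54.1 (rank 101), with 28.5 in replicate 1 and 27.3 in replicate 2, and the summit was 2 bases into the snoRNA gene. The region with its summit inside C51F7.4, and near the second snoRNA gene C51F7.3, lay within frm-7 and had a signal of 45.3, with 20.3 in replicate 1 and 23.1 in replicate 2. B0379.13 followed at 35.7 and lay outside protein-coding genes. These 3 summits were all inside the snoRNA gene, and none of the 3 windows held a GATA sequence. The region with the GATA sequence was nearest K02B9.10, at 189 bases, with a signal of 33.8, and also lay in the promoter window of alg-1, an Argonaute gene of the microRNA pathway. The remaining 5 lay at ZK20.9, Y23H5B.10, K02C4.8, F59C6.15 and C08D8.3, with signals from 31.0 to 32.5.

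The 5 snRNA regions in the IDR list held no GATA sequence, and 3 of them were at sls-2 genes. The strongest was at sup-6, a U1 snRNA gene known from mutations that suppress splicing defects. Its region at II:12944667-12945006 had a signal of 51.8 (rank 111), with 37.4 in replicate 1 and 15.2 in replicate 2, and the summit was inside the gene. The gene sls-2.2 had a region with a signal of 45.3, with 32.1 in replicate 1 and 18.0 in replicate 2. The summit of that region lay 79 bases beyond the gene. At sls-2.8, shown above, the summit was inside the gene and the signal was 33.5, with 18.2 in replicate 1 and 11.6 in replicate 2. All 3 had the higher value in replicate 1, the list with the higher median. The region at sls-2.4 had a signal of 32.4 and also lay in the promoter window of egg-5. F38E11.10 had a signal of 30.1, and here replicate 1 had 9.96 and replicate 2 had 20.0. Below the IDR list came H27M09.6 at 22.3, F08G2.10 at 20.7 and the SmY gene smy-9 at 20.6.

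A GATA sequence was found at a smaller share of strong regions at these genes than of strong regions over all. Over all members of a biotype the share was 38.3% at tRNA genes (32.2 to 44.8), 26.3% at snoRNA genes (18.6 to 35.2) and 12.8% at snRNA genes (4.30 to 27.4), against 41.2% of all pooled regions. The tRNA interval included the overall value, and the snoRNA and snRNA intervals lay below it. Within the 6000 strongest pooled regions the shares were 36.1% at tRNA genes (27.5 to 45.4), 23.7% at snoRNA genes (13.6 to 36.6) and 12.5% at snRNA genes (1.55 to 38.3), against 50.1% over all, and here each interval lay below the overall value. In the IDR list 5 of 13 tRNA regions, 1 of 9 snoRNA regions and 0 of 5 snRNA regions held one, together 6 of 27 (22.2%, 8.62 to 42.3), against 569 of the 747 other IDR regions (76.2%, 72.9 to 79.2). For the 5 snRNA regions the count of 0 allows a share of up to 52.2%.

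Among the strongest regions the difference had the same direction in each replicate taken alone. Among the 774 strongest regions of replicate 1, 24 lay at genes of the 3 biotypes and 9 of these held a GATA sequence (37.5%, 18.8 to 59.4), against 74.3% of the other 750. Among the 774 strongest of replicate 2, 27 lay at such genes and 8 held one (29.6%, 13.8 to 50.2), against 69.1% of the other 747. For tRNA regions alone it was 5 of 11 in each replicate (45.5%, 16.7 to 76.6). That interval included the share of the others, 73.5% in replicate 1 and 68.0% in replicate 2. The snoRNA intervals lay below the others, with 3 of 10 in replicate 1 (6.67 to 65.2) and 3 of 11 in replicate 2 (6.02 to 61.0). For snRNA regions it was 1 of 3 and 0 of 5. Over all tRNA regions of a replicate no one direction was seen, with 39.7% (33.3 to 46.3) against 41.3% of the others in replicate 1 and 41.5% (34.8 to 48.5) against 40.4% in replicate 2. By median rank, signal and GATA sequence also went together differently, though no interval was computed for these medians. At tRNA genes the median rank was 24.9% with a GATA sequence (n = 92) and 19.3% without one (n = 148). At snoRNA genes it was 24.6% with one (n = 31) and 17.3% without (n = 87), whereas over all pooled regions it was 46% and 52.6%. Shares in the IDR list were alike at tRNA genes, at 5.43% with a GATA sequence and 5.41% without. They were 3.23% and 9.20% at snoRNA genes, against 4.66% and 1.13% over all pooled regions. From the strongest 6000 pooled regions down in groups of like size, the GATA share of tRNA regions was 36.1%, 48.7%, 41.7%, 37.5% and 27.3%. These tRNA shares did not rise or fall steadily with rank.

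**Figure D5:**
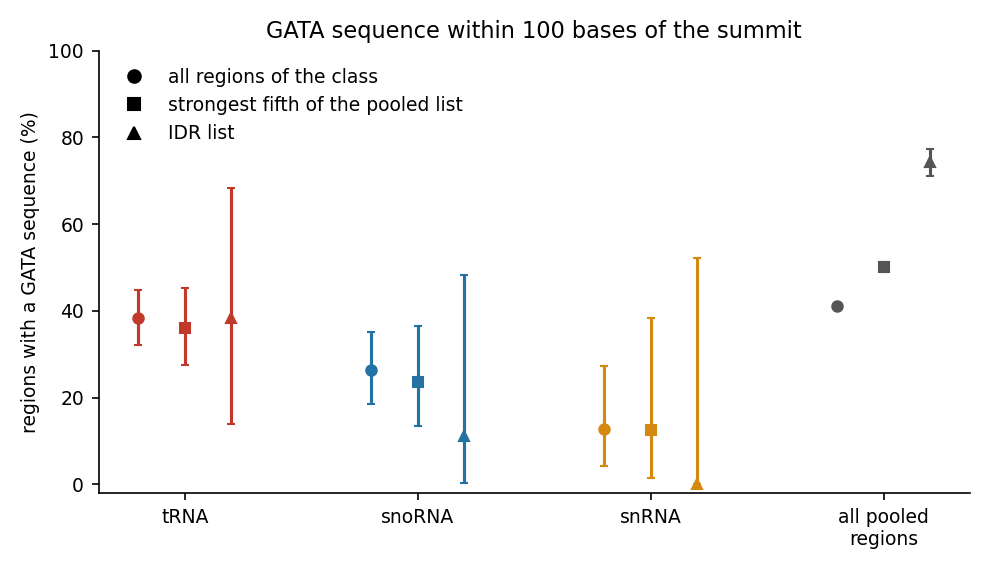
Share of regions with a GATA sequence within 100 bases of the summit (y axis, percent, exact 95% intervals) for regions at tRNA, snoRNA and snRNA genes and for all pooled regions, over all regions of the class (circles), those in the strongest 6000 of the pooled list (squares) and those in the IDR list (triangles). At tRNA genes the share was 38.3%, 36.1% and 38.5%, against 41.2%, 50.1% and 74.3% over all pooled regions.

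Base composition moved with this difference. The median GC content of the window of 201 bases was 42.5% at tRNA genes, 43.5% at snoRNA genes and 41.8% at snRNA genes, against 36.3% over all pooled regions. Where GC was under 35%, 23 of 60 regions at genes of the 3 biotypes held a GATA sequence (38.3%, 26.1 to 51.8), against 44.8% of the other pooled regions. From 35 to 40% GC it was 41 of 86 (47.7%, 36.8 to 58.7), against 42.8%, and from 40 to 45% it was 30 of 96 (31.2%, 22.2 to 41.5), against 38.2%. At 45% GC or more it was 33 of 153 (21.6%, 15.3 to 28.9), against 28.1%. In each range the interval of the 3 biotypes together included the value of the other regions, and from 35 to 40% the regions at these genes had the higher share. Taken singly, the biotypes differed. At 45% GC or more the share was 31.1% at tRNA genes (21.8 to 41.7) but 9.80% at snoRNA genes (5 of 51, 3.26 to 21.4), an interval below 28.1%. From 35 to 40% it was 0 of 7 at snRNA genes, with an upper bound of 41.0%, below 42.8%. The other intervals by biotype and range included the value of the other regions. In the IDR list, over the same ranges from low to high GC, regions at these genes held one in 0 of 4, 3 of 5, 2 of 8 and 1 of 10 cases, against 90.2%, 83.0%, 72.9% and 51.2% of the other IDR regions. The part of base composition in the difference was not tested. Windows centred 500 bases to either side of the summit held a GATA sequence in 41.2% of cases at tRNA genes, 34.7% at snoRNA genes and 38.5% at snRNA genes, against 37.0% over all regions.

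Other letters were counted in the same windows on both strands. GTTCGANNC, the core of the B box, was found in 46.7% of the tRNA windows (40.2 to 53.2), 10.2% of the snoRNA windows and 2.56% of the snRNA windows, against 1.89% over all pooled regions, and the choice of regions by position sets the tRNA value. At the level of genes, a region was present at 178 of 441 tRNA genes with GTTCGANNC (40.4%, 35.7 to 45.1) and at 79 of 171 without it (46.2%, 38.6 to 54.0), and the intervals overlapped. GAGAGA, which contains no GATA sequence, was found in 20.4% of the tRNA windows (15.5 to 26.1), 20.3% of the snoRNA windows (13.5 to 28.7) and 15.4% of the snRNA windows (5.86 to 30.5), against 14.6% over all. Only the tRNA interval lay above that value. GAGACG was found in 8.33% (5.16 to 12.6), 14.4% (8.62 to 22.1) and 10.3% (2.87 to 24.2) of the tRNA, snoRNA and snRNA windows, against 7.36% over all. Here only the snoRNA interval lay above the value over all.

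Among tRNA genes the share with a region was set out by amino acid and by sequence copy. The RefSeq product was given for 607 of 612 genes. The share ran from 3 of 20 for asparagine (15.0%, 3.21 to 37.9) and 3 of 12 for tryptophan (25%, 5.49 to 57.2) to 22 of 41 for glutamate (53.7%, 37.4 to 69.3), 7 of 13 for cysteine (53.8%, 25.1 to 80.8) and 23 of 42 for proline (54.8%, 38.7 to 70.2). The interval of asparagine lay below that of proline, and every other of the 210 pairs had overlapping intervals. In the replicate lists no pair had separate intervals, with asparagine at 5 of 20 in each and proline at 20 of 42 in replicate 1 and 19 of 42 in replicate 2. The single selenocysteine tRNA gene had a region with a signal of 14.9. On X 127 of 276 tRNA genes had a region (46%, 40 to 52.1), against 130 of 336 on the autosomes (38.7%, 33.5 to 44.1), with overlapping intervals. Of 469 tRNA genes whose sequence was identical to that of another tRNA gene, 218 had a region (46.5%, 41.9 to 51.1), against 39 of 143 genes of unique sequence (27.3%, 20.2 to 35.3), and these intervals did not overlap. The same direction was seen in replicate 1, with 204 of 469 against 43 of 143, and in replicate 2, with 185 of 469 against 41 of 143. The sources used here do not say how reads that match several copies were placed, and its part in the difference was not tested. A tRNA gene with another within 1000 bases had a region in 43.6% of cases (37.2 to 50.2), against 41.0% for those without (35.9 to 46.1).

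Among snRNA genes the share with a region differed between the spliced leader families. Of 18 sls-2 genes 11 had a region (61.1%, 35.7 to 82.7), while 0 of 12 sls-1 genes had one (an exact upper bound of 26.5%). These intervals did not overlap, but the bound counts the 12 sls-1 genes as separate although they form 1 locus. The sls-2 genes lie dispersed on 4 chromosomes. The 12 sls-1 genes lie together within 13954 bases of V, 10 of them with the same sequence, and no summit of the pooled list fell in that stretch or within 5000 bases to either side. No region was called there at all, so the value for sls-1 describes 1 locus. Of the other families, 3 of 10 SmY genes annotated as snRNA (30%, 6.67 to 65.2) and 22 of 87 remaining snRNA genes (25.3%, 16.6 to 35.7) had a region. The SmY genes smy-2 and smy-3 are annotated as snoRNA genes and were counted there. A pooled region was present at smy-3 (signal 23.6) and absent at smy-2. Of the 2 sup genes annotated as snRNA, sup-6 had a pooled region and sup-39 had none, though replicate 2 had a summit at sup-39. In replicate 1 the sls-2 count was 6 of 18 and in replicate 2 it was 11 of 18, and sls-1 had none in either. Intervals were not computed for these replicate counts, so separate intervals are shown for the pooled list alone. Over all snRNA genes, those identical to another had a region in 10 of 44 cases (22.7%, 11.5 to 37.8), against 27 of 85 of unique sequence (31.8%, 22.1 to 42.8), the opposite order to the tRNA genes but with overlapping intervals.

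Many of these genes lie inside other genes. Of the tRNA genes, 290 lay inside a protein-coding gene (47.4%), as did 216 snoRNA genes (62.4%) and 63 snRNA genes (48.8%). On the same strand as the host were 27.3% of tRNA genes, 52.9% of snoRNA genes and 28.7% of snRNA genes. A region was present at 43.8% of hosted tRNA genes (38.0 to 49.7), against 40.4% of those outside protein-coding genes (35 to 46). For snoRNA genes it was 31.0% of hosted ones (24.9 to 37.6), against 40% of the others (31.5 to 49.0), and for snRNA genes 30.2% (19.2 to 43.0), against 27.3% (17.0 to 39.6). Each pair of intervals overlapped. Promoter windows of protein-coding genes, from 1000 bases upstream to 200 downstream of a start, covered the summits of 26.7% of the tRNA regions (21.2 to 32.7), 33.9% of the snoRNA regions (25.4 to 43.2) and 41.0% of the snRNA regions (25.6 to 57.9), against 30.7% of all pooled regions, and each interval included the overall value. Outside promoter windows the median rank was 20.1% at tRNA genes, 17.9% at snoRNA genes and 36.7% at snRNA genes, against 51.8% over all such regions.

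Regions of high and of low rank lay at the limit of 200 bases. Just inside it lay the regions at C48C5.t1 (198 bases, signal 20.2, rank 9.09%), Y37E3.21 (199 bases, signal 14.6, rank 33.0%) and B0213.24 (199 bases, signal 12.7, rank 55.8%). Just outside it lay those nearest C12C8.t2 (202 bases, signal 21.7, rank 7%), C03B8.5 (201 bases, signal 10.8, rank 89.0%) and sls-2.17 (210 bases, signal 10.9, rank 87.8%). Most member regions lay near a single gene, namely 212 of 240 at tRNA genes, 115 of 118 at snoRNA genes and 39 of 39 at snRNA genes, and 28 tRNA regions were shared by 2 genes.

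The protein-coding genes that make or use these RNAs were looked at in 5 lists, and names that matched no gene were left out. For snoRNP proteins 7 of 9 names matched, for spliceosomal snRNP proteins 21 of 22 and for synthetases 20 of 22. For RNA polymerase III and its factors 14 of 17 names matched, and for SNAPc subunits 7 of 10. A pooled summit lay in the promoter window of 40.9% of all protein-coding genes and an IDR summit in that of 1.94%. Of the snoRNP proteins 6 of 7 had a pooled summit (85.7%, 42.1 to 99.6). The highest were nola-3 (signal 27.1), a subunit of the H/ACA particle, dkc-1 (16.7), its pseudouridine synthase, and nol-58 (16.6), a core protein of the C/D particle. Spliceosomal snRNP proteins had one in 12 of 21 cases (57.1%, 34.0 to 78.2), led by lsm-3 (25.6), lsm-6 (23.0) and snr-4 (18.5), which encode proteins of the LSm and Sm rings. The region at snr-4 is the one at the snRNA gene C52E4.8, counted above. Cytoplasmic aminoacyl-tRNA synthetases had one in 9 of 20 cases (45%, 23.1 to 68.5). Among them cars-1, the cysteinyl-tRNA synthetase, had an IDR summit, with a signal of 44.6 and 2 GATA sequences. RNA polymerase III and its factors had one in 3 of 14 cases (21.4%, 4.66 to 50.8), at tftc-5 (13.1), tftc-3 (11.6) and rpc-2 (10.9), and SNAPc subunits in 1 of 7, at snpc-3.4 (22.8). The interval of the snoRNP proteins alone lay above 40.9%, with its lower bound at 42.1%, and it leaves out the names that matched no gene. Among these snoRNP genes, the regions at nola-3 and nol-58 held summits of both replicate lists. Those at dkc-1, nol-56, snu-13 and fib-1 held a summit of a single replicate. No gene of the lists other than cars-1 had an IDR summit.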

How the data were processed

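ELT-3 ChIP-seq of whole L3 larvae (2 biological replicates) was analysed from region lists in ce11. The authors deposited 1 list per replicate, 1 called on both replicates pooled, each of 30000 regions, and 1 IDR list of 774; the 7th column holds a signal per region. The deposited signal has no stated scale and was used only to rank and describe regions within a list. Per the labels, fragmentation was by sonication. The sources used here do not name the aligner, peak caller or IDR threshold. Lists in ce10 were not used. The lists hold no read counts, so depth is unknown, and the number of regions sets the precision.

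Genes came from Ensembl release 115 (WBcel235, the coordinates of ce11), names and tRNA products from RefSeq by gene ID (names for all 1087 genes); 22 mitochondrial tRNA genes were left out. A replicate counted where its summit lay inside the pooled region. Regions, genome letters and exact intervals (scipy 1.17.1, pandas 2.3.3, Python 3.11.15) were handled by scripts tested on simulated data. No test between groups was possible. Named regions are all members in the IDR list, the 8 highest per biotype, those nearest the limit of 200 bases, and per list the genes with an IDR summit or else the highest 3. Members and lists were chosen with earlier results of these data known. Sequences are shown only outside UTRs and without runs of 21 bases shared with chromosome I.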

Additional observations from a re-analysis of the deposited data

How the results depend on the processing

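Of 96 alternative values, 66 lay within the 95% interval of the reported value and 30 did not, and none of the 90 that have a background lay on the other side of it. These alternatives did not include GATA shares from one replicate at a time. For tRNA regions that share was 39.7% against 41.3% of the others in replicate 1, but 41.5% against 40.4% in replicate 2, on the other side. No paired analysis was possible because there is a single group. The share of genes with a region was, for tRNA, snoRNA and snRNA genes, 32.4%, 25.7% and 20.9% within 100 bases of the summit, 58%, 53.8% and 42.6% within 500 bases, and 31.5%, 25.4% and 19.4% with the 15000 strongest regions. Within 200 bases of the start the snoRNA share was 29.2%. Counting only tRNA genes of unique sequence, an alternative chosen after seeing the data, gave 27.3%. From one replicate at a time the share ranged from 36.9% to 40.4% for tRNA genes, and the median rank of tRNA regions from 20.5% to 31.5%, the higher without replicate 1. Within 500 bases that median was 28.5%. The median rank of snRNA regions was 22.8% within 200 bases of the start and 22.5% within 100 bases of the gene, against 35.6% reported. Presence in both replicate lists was 61.3% at tRNA genes by overlap of regions, and 25.4%, 30.5% and 23.1% for the 3 biotypes with replicate summits within 50 bases. The share with a GATA sequence was 19.2% at tRNA and 16.9% at snoRNA genes within 50 bases of the summit, 55.4%, 47.5% and 28.2% over the whole region, and 18.8%, 12.7% and 2.56% for TGATAA alone. With summits within 500 bases it was 39.0%, 33.2% and 22.9%, nearer to the 41.2% over all regions. The share of hosted genes was 27.3%, 52.9% and 28.7% with hosts on the same strand only, and 49.7% for snoRNA genes wholly in an intron. The small number of snRNA regions, 39, limits every value for that biotype.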

Other observations

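Other noncoding genes gave lower shares than tRNA and snoRNA genes in the window of 200 bases to either side of the start. The snRNA genes were not set apart from them. Their share of 22.5% had an interval (15.6 to 30.7) that included the value of ncRNA genes and overlapped the intervals of miRNA, lincRNA and antisense RNA genes. A pooled summit lay there at 35 of 261 miRNA genes (13.4%, 9.52 to 18.2), 27 of 194 lincRNA genes (13.9%, 9.38 to 19.6), 9 of 100 antisense RNA genes (9%, 4.20 to 16.4) and 1593 of 7764 genes annotated as ncRNA (20.5%, 19.6 to 21.4). Genes of piRNAs, the small RNAs of the germline Piwi pathway, had one in 1381 of 15363 cases (8.99%, 8.54 to 9.45) and pseudogenes in 187 of 2128 (8.79%, 7.62 to 10.1), both below the 11.8% of genome tiles. The median rank of these regions was 58% at piRNA genes and 56.1% at pseudogenes, against 43.9% at protein-coding starts. None of the 20 rRNA genes had one (an exact upper bound of 16.8%). The rRNA genes, like the sls-1 genes, lie in repeated arrays.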
